A study of Homo sapiens with 3 samples.

Results

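TXNIP, ARRDC4 and the genes of the MondoA-MLX glucose-sensing pathway were followed in Molm13 cells, a human acute myeloid leukemia line with an internal tandem duplication of FLT3. The 8 genes were taken by their gene identifiers: TXNIP, ARRDC4, ARRDC2, ARRDC3, MLX, MLXIP, MLXIPL and TXN. They are 8 of the 25702 genes counted, and 7 of them reached at least 10 counts in a library and were tested with 12879 genes in all. Pyrvinium is an anthelmintic drug, and the study asked by which routes it acts on these leukemia cells, among them mitochondrial respiration. Cells in RPMI medium with serum received DMSO, the vehicle, or pyrvinium at 50 nM or 100 nM for 6 h. Each condition was sequenced as 1 library, so the data hold 3 libraries of a single cell line and no difference has a replicate check. In bulk RNA, fewer cells of a kind and less RNA per cell cannot be told apart.

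MondoA, encoded by MLXIP, is a basic helix-loop-helix transcription factor that pairs with MLX and accumulates in the nucleus when glucose 6-phosphate is plentiful. ChREBP, encoded by MLXIPL, is its relative in liver and fat. TXNIP and ARRDC4, both alpha-arrestins, are the best known target genes of MondoA. TXNIP binds thioredoxin, the product of TXN, and limits glucose uptake by promoting the internalisation of glucose transporters. TXNIP mRNA is known to fall in many cell types when respiration is inhibited and glucose is drawn faster into glycolysis.

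The 3 libraries held 22677038 to 24075123 counts, and at least 1 read was counted on 15355 to 15685 genes. All 11 markers of myeloid leukemia examined were tested, among them CD33 with 2015 counts in DMSO, 1910 at 50 nM and 1965 at 100 nM. Later counts follow this order. The largest ratios at 100 nM among these markers were those of FLT3 (6304, 9012 and 11181 counts, log2 0.77), MPO (291, 367 and 450, 0.57) and SPI1 (2981, 2667 and 2491, -0.32). FLT3 was called higher at 1.5-fold at 100 nM, as were 4.43% of all genes. Of 11 markers of other cell types, 3 reached the count minimum, namely CD3D, PECAM1 and HBB. HBB had 16 counts in the 50 nM library and 0 in the other libraries. Mitochondrially encoded genes held 5.59%, 4.68% and 5.11% of the counts in the same order. The median log2 ratio over all genes tested was -0.0047 at 50 nM and -0.0042 at 100 nM against DMSO. Counts were scaled by TMM, and a level is given in RPKM, which divides scaled reads by gene length and library size. A gene was called at 2-fold or more with an adjusted p of at most 0.05 in an exact binomial test of the reads, which compares libraries and not conditions. Intervals are 95% exact intervals and cover counting error only.

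The promoter of TXNIP carries the letters through which MondoA and MLX are known to act, a carbohydrate response element made of E-box-like boxes with 5 bases between them. The stretch before the counted part of each gene is shown for TXNIP, ARRDC4 and MLX, the genes whose windows hold such letters, from RefSeq promoters of GRCh38.p14 matched to GRCh37. TXNIP was counted over chr1:145438462-145442635 of hg19, on the plus strand, and its stretch is chr1:145438240-145438461. ARRDC4 was counted over chr15:98503933-98517068 on the plus strand, and its stretch is chr15:98503683-98503932. MLX was counted over chr17:40719078-40725221 on the plus strand, and its stretch is chr17:40718868-40719077. Capitals mark the pair of E-box-like boxes in TXNIP and the E-box CACGTG in ARRDC4 and MLX.
TXNIP: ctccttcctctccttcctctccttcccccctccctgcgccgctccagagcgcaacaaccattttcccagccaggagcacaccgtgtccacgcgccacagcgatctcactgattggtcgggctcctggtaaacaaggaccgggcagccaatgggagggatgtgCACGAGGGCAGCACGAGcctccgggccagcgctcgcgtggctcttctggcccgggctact
ARRDC4: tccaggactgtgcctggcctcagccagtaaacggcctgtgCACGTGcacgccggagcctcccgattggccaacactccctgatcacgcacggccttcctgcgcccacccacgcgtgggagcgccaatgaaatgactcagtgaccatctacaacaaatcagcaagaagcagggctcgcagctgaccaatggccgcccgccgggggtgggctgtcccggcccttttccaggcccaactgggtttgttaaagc
MLX: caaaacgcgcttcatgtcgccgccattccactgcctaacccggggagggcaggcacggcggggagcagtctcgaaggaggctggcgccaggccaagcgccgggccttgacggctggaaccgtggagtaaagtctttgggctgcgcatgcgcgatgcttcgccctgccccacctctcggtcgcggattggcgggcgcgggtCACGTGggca

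The pair was searched as CACGNG and CNCGNG with 5 bases between, on both strands of the 250 bases before each transcript start. In TXNIP it lay at -88 to -72 from the start, on the sense strand, and its letters were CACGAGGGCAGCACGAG. None of the other windows of these genes held the pair, which was present in 149 of 35116 promoter windows, or 0.424%. The E-box CACGTG, which reads the same on both strands, lay at -210 to -205 in ARRDC4 and at -50 to -45 in MLX, and was present in 6.34% of all windows. CCAAT boxes, searched on both strands, stood at -140 and -105 in TXNIP, at -187, -128 and -67 in ARRDC4 and at -66 in MLX. Others stood at -76 in MLXIP, -241 in ARRDC3, -93 in ARRDC2 and -80 in ARRDC1. Such boxes were present in 32.0% of all windows. The windows of MLXIPL and TXN held none of these letters. The other genes were counted over chr19:18111944-18124911 (ARRDC2), chr5:90664541-90679149 (ARRDC3, minus strand), chr12:122516760-122628989 (MLXIP), chr7:73007524-73038870 (MLXIPL, minus strand) and chr9:113006310-113018778 (TXN, minus strand).

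TXNIP fell at 50 nM and was lower than in DMSO at 100 nM. It had 2017 counts in DMSO, 982 at 50 nM and 1214 at 100 nM. The matching levels were 29.7, 14.8 and 17.2 RPKM. The highest value was that of the DMSO library, and the lowest was that of the lower dose. At 50 nM the log2 ratio to DMSO was -1.01 (-1.12 to -0.90), a fall of 50.3%, with an adjusted p of 2.4e-74 by the exact binomial test. Of the 7 tested genes, 1 was called at 50 nM, namely TXNIP, in a comparison where 0.28% of all genes were called lower and 0.776% higher. At 100 nM the log2 ratio was -0.79 (-0.90 to -0.69, adjusted p = 2.66e-51 by the exact binomial test), 42.2% below DMSO and short of 2-fold. None of the 7 genes was called at 2-fold at 100 nM, where 0.512% of all genes were called lower and 1.84% higher. Ranked among genes that averaged at least 50 counts, the log2 ratio of TXNIP was number 6 from the lowest of 10793 at 50 nM and 78 of 10851 at 100 nM.

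ARRDC4, the arrestin closest to TXNIP in its known control by glucose, was lower at both doses by a similar size. It had 288 counts in DMSO, 151 at 50 nM and 169 at 100 nM, or levels of 3.06, 1.64 and 1.72. Its log2 ratio to DMSO was -0.90 (-1.20 to -0.61, adjusted p = 4.74e-09 by the exact binomial test) at 50 nM. At 100 nM it was -0.83 (-1.11 to -0.55, adjusted p = 1.49e-08 by the exact binomial test). These values were 46.4% and 43.6% below DMSO and missed the 2-fold limit. ARRDC4 ranked 11 from the lowest of 10793 genes at 50 nM and 67 of 10851 at 100 nM. At 1.5-fold, TXNIP and ARRDC4 were called lower at both doses, as were 0.994% of all genes at 50 nM and 2.51% at 100 nM. Both comparisons use the same DMSO library, so they are not independent of each other.

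The ratio of the TXNIP level to the ARRDC4 level was 9.71 in DMSO, 9.01 at 50 nM and 9.96 at 100 nM. The pair thus kept nearly the same proportion in the 3 libraries while both levels differed from DMSO. The 100 nM library was not lower than the 50 nM library for either gene. Between the doses TXNIP was higher at 100 nM, with a log2 ratio of 0.22 (0.10 to 0.34, adjusted p = 0.00459 by the exact binomial test). For ARRDC4 the log2 ratio between the doses was 0.07 (-0.25 to 0.40). None of the 7 genes was called between the doses, where 0.303% of all genes were higher and 0.318% lower at 2-fold, and 0.846% and 0.466% at 1.5-fold.

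**Figure D1:**
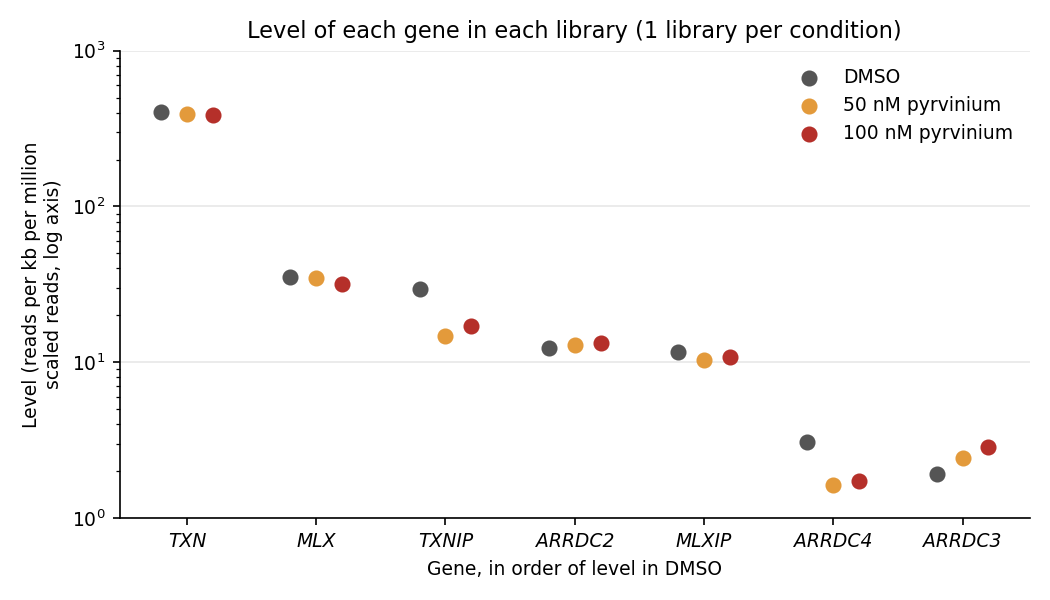
Level of each tested gene in each library on a log axis, in RPKM on scaled library sizes, with 1 point per library and no error bars because each condition has 1 library. TXNIP and ARRDC4 are highest in DMSO, ARRDC3 is highest at 100 nM, and TXN lies above all the others at 386 to 405.

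The other arrestins differed in direction among themselves. ARRDC3, which is known to recruit ubiquitin ligases to membrane receptors, had 183 counts in DMSO, 227 at 50 nM and 288 at 100 nM. Its log2 ratio was 0.34 (0.05 to 0.63, adjusted p = 0.0596 by the exact binomial test) at 50 nM and 0.59 (0.32 to 0.87, adjusted p = 5.55e-05 by the exact binomial test) at 100 nM. It was called higher at 1.5-fold at 100 nM, as were 4.43% of all genes, and not at 50 nM, where 1.79% were. In DMSO the ARRDC4 level lay above that of ARRDC3, 3.06 against 1.90. In both pyrvinium libraries the order was turned, with 2.41 for ARRDC3 against 1.64 at 50 nM and 2.87 against 1.72 at 100 nM, and the counting intervals of these levels did not overlap. ARRDC2 had 843, 864 and 940 counts, and its log2 ratios of 0.06 (-0.07 to 0.20) and 0.10 (-0.04 to 0.23) had intervals that held 0. ARRDC1, an arrestin outside the 8 genes that acts in the release of vesicles from the cell surface, had 918, 748 and 728 counts. Its log2 ratio was -0.27 (-0.41 to -0.13) at 50 nM and -0.39 (-0.54 to -0.25) at 100 nM, short of either limit. ARRDC1 shares 29 exonic bases with its antisense gene, and ARRDC5 had 0 counts in every library. TXNIP made up 41.3% of the summed level of the arrestins in DMSO, 28.2% at 50 nM and 31.8% at 100 nM.

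**Figure D2:**
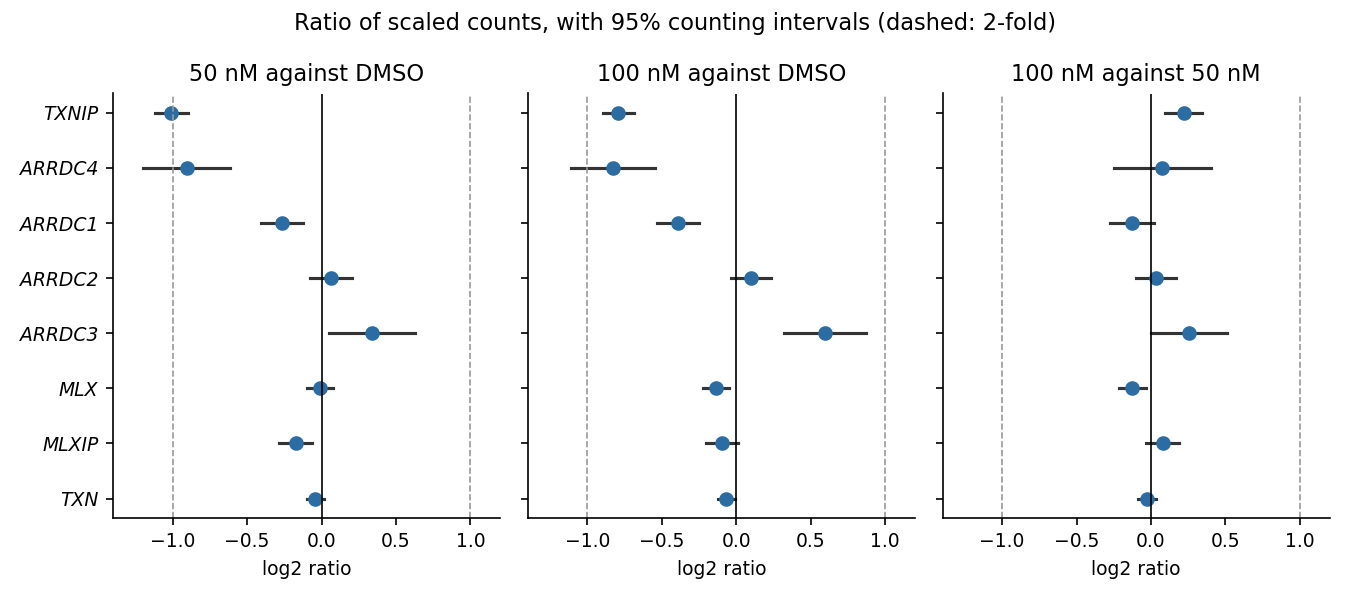
Log2 ratio of scaled counts for each gene in the 3 comparisons, with points for the ratio, bars for the 95% counting interval and dashed lines at 2-fold. TXNIP and ARRDC4 lie left of 0 against DMSO at both doses, ARRDC3 lies right of it, and between the doses only TXNIP and MLX have intervals that exclude 0.

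The transcription factors themselves differed far less than TXNIP. MLXIP, which encodes MondoA, had 1453, 1262 and 1415 counts, and its log2 ratio was -0.17 (-0.28 to -0.06) at 50 nM and -0.10 (-0.20 to 0.01) at 100 nM. MLX, its partner, had 2076, 2020 and 1967 counts, with log2 ratios of -0.01 (-0.10 to 0.08) and -0.14 (-0.23 to -0.05). The 100 nM library had the lowest MLX count, and the 50 nM library had the lowest MLXIP count. MLX shares 774 exonic bases with PSMC3IP on the opposite strand, whose counts were 484, 384 and 371, and the strand setting of the counting is not given in the sources used here. MLXIPL, which encodes ChREBP, had 0, 0 and 1 counts. A count of 0 allows up to 0.130 CPM (RPKM without the division by length) in DMSO and 0.132 at 50 nM, so MLXIPL was not detectable at this depth and no fold is given. TXN had 4757, 4533 and 4729 counts, with log2 ratios of -0.04 at 50 nM and -0.07 (-0.13 to -0.01) at 100 nM. The level of TXN was 13.6 times that of TXNIP in DMSO, 26.7 times at 50 nM and 22.5 times at 100 nM.

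Counted by interval alone, 1 of the 7 genes lay above 0 and 3 below at 50 nM, where 17.9% of all genes lay above and 19.2% below. At 100 nM these were 1 and 4, with 23.8% of all genes above and 25.5% below. Between the doses they were 1 and 1, with 13% above and 13.8% below. So many genes have intervals that exclude 0 that such a difference alone sets no gene apart, and the small ratios of MLX, MLXIP and TXN fall in this range. When replicate variation was assumed in the exact test of edgeR, at a coefficient of 0.1, the adjusted p of ARRDC4 at 50 nM was 0.102 and that of ARRDC3 at 100 nM was 0.27, and the TXNIP difference between the doses had an adjusted p of 1.

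In the DMSO library the order of levels was TXN (405), MLX (35), TXNIP (29.7), ARRDC2 (12.4), MLXIP (11.6), ARRDC4 (3.06) and ARRDC3 (1.90). Counting intervals of neighbours in this order overlapped only for ARRDC2 and MLXIP, where the lower bound of ARRDC2 was 11.6 and the upper bound of MLXIP was 12.2. At 50 nM TXNIP, at 14.8 (13.8 to 15.7), came next to ARRDC2, at 12.9 (12.1 to 13.8), and these intervals met without overlapping.

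Genes with ratios most like those of TXNIP were sought in the plane of the log2 ratios at 50 nM and 100 nM over 10834 genes that averaged at least 50 counts. The nearest by Euclidean distance was RAB3IL1, with 123, 63 and 73 counts and a distance of 0.0801, followed by ARRDC4 at 0.114. ANKRD9 at 0.153, CTXN1 at 0.156 and the gene with Entrez identifier 100287628 at 0.134 made up the 5 nearest. For ARRDC4 the nearest were RAB3IL1 at 0.0357, CTXN1 at 0.0615, the same unnamed gene at 0.0641, TGFBR3L at 0.0648 and ANKRD9 at 0.0908. Apart from ARRDC4, these genes had 91 to 176 counts in DMSO, so their own ratios carry wide counting error, and the likeness rests on 3 libraries that include a shared DMSO library. POLR3GL, the tested gene next to TXNIP at 13601 bases, had 250, 223 and 269 counts and a log2 ratio of 0.05 (-0.21 to 0.30) at 100 nM.

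**Figure D3:**
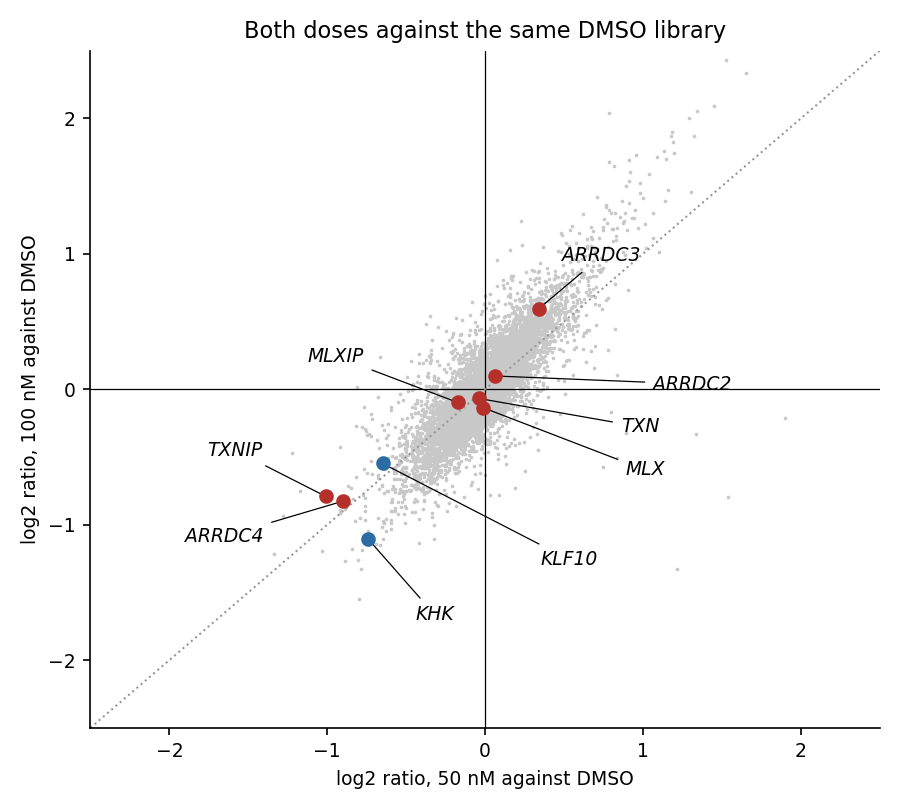
Log2 ratio to the shared DMSO library at 50 nM (x axis) and 100 nM (y axis) for 10834 genes in grey, with the tested genes of the pathway in red, KLF10 and KHK in blue, and a dotted line where both ratios are equal. TXNIP at -1.01 and -0.79 and ARRDC4 at -0.90 and -0.83 lie close together at the lower left edge of the cloud, away from MLX, MLXIP and TXN near 0. RGS16 and ACACB, reported targets called higher at 1.5-fold at 100 nM, are not marked.

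Other genes reported as targets of MondoA or ChREBP differed in both directions. Of 16 on the list, 14 were tested, with a median log2 ratio of 0.11 at 50 nM and 0.16 at 100 nM. KHK, the fructokinase, had 106, 62 and 51 counts. It fell at 100 nM (-1.11, -1.63 to -0.62), the only dose at which it was called at 2-fold. There 0.512% of all genes were called lower. KLF10, a repressor induced by glucose, had 389, 243 and 277 counts and log2 ratios of -0.65 (-0.89 to -0.41) and -0.55 (-0.78 to -0.32). Between the doses its log2 ratio was 0.10 (-0.15 to 0.36), so the doses did not differ beyond counting error. At 1.5-fold, KHK and KLF10 were called lower at 50 nM, as were 0.994% of all genes. KHK was called lower at 100 nM, as were 2.51%. ACACB, an acetyl-CoA carboxylase, had 48, 51 and 88 counts, and RGS16, a regulator of G protein signalling, had 263, 304 and 419. Both were called higher at 1.5-fold at 100 nM, as were 4.43% of all genes. Their log2 ratios were 0.81 (0.29 to 1.35) and 0.61 (0.39 to 0.84). LDHA, the lactate dehydrogenase subunit, was lower without reaching either limit, with log2 ratios of -0.26 and -0.50, and HK2, the hexokinase, was higher at 0.19 and 0.18.

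Genes whose promoters match the same search pattern as TXNIP were centred near 0. The pattern is looser than the letters found in TXNIP, and a match does not show that MondoA binds there. Of 88 tested genes with the E-box-like pair in a window, the median log2 ratio was 0.01 at 50 nM and -0.06 at 100 nM. At 50 nM TXNIP and MAFF, which had 28, 11 and 23 counts, were called lower at 2-fold and none of the 88 higher. Of all 9705 tested genes with a window, 24 were lower and 64 higher by this rule. At 1.5-fold and 50 nM, 2 of the 88 were lower and 2 higher, or 2.27% each, against 0.866% and 1.62% of the 9705. The lower ones were again TXNIP itself and MAFF. At 100 nM JDP2, with 308, 536 and 703 counts, was called higher at 2-fold and none of the 88 lower, beside 168 higher and 42 lower of the 9705. At 1.5-fold and 100 nM, 3 of the 88 were called lower, or 3.41%, against 2.42% of the 9705 tested genes with a window. They were TXNIP itself, POP7 and RCN3, so this share includes the TXNIP result and is not separate from it. More of the 88 were called higher, 6 or 6.82%, against 4.22% of all genes with a window. The genes with a full E-box numbered 1130 among those tested, with 2.12% called lower at 1.5-fold and 100 nM. MAFF, JDP2, POP7 and RCN3 were chosen for naming with their values in view.

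Genes that bring glucose into the cell and set glucose 6-phosphate differed by small amounts in both directions. Of 12, 10 were tested and none was called at either limit by the exact binomial test, with medians of 0.02 and 0.03 at 50 nM and 100 nM. Of all genes, 4.43% were called higher and 2.51% lower at 1.5-fold and 100 nM. At 100 nM 5 of the 10 intervals lay above 0 and 4 below, beside 23.8% and 25.5% of all genes, which span every depth and are not a like comparison. The glucose transporter SLC2A1 had 1376, 1449 and 1646 counts and a log2 ratio of 0.20 (0.10 to 0.30) at 100 nM, and SLC2A3 had 0.19 (0.07 to 0.31). At 100 nM PGM1, which interconverts glucose phosphates, was at -0.32 (-0.54 to -0.11). SLC37A4, the glucose 6-phosphate transporter of the endoplasmic reticulum, was at -0.30 (-0.48 to -0.12).

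The thioredoxin system, on which TXNIP acts, was lower by small amounts in most members at 100 nM. Of 19 genes 18 were tested, with medians of -0.04 at 50 nM and -0.15 at 100 nM, and none was called at either limit by the exact binomial test. Of all genes, 4.43% were called higher and 2.51% lower at 1.5-fold and 100 nM. At 100 nM 13 of 18 intervals lay below 0 and 1 above, beside the 25.5% and 23.8% of all genes. At 50 nM these were 7 and 2, beside 19.2% and 17.9%. Intervals narrow with more counts, and this list holds abundant genes, so the shares of all genes are not a like comparison. RRM2, a subunit of ribonucleotide reductase, had 9704, 7234 and 6948 counts and log2 ratios of -0.39 and -0.54 (-0.59 to -0.50). GLRX, a glutaredoxin, was at -0.38 (-0.56 to -0.20) at 100 nM and TXNDC17, a thioredoxin-related protein, at -0.33 (-0.44 to -0.22). TXNRD1, the cytosolic thioredoxin reductase, was at -0.06 (-0.11 to -0.01).

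The alpha-arrestins bind ubiquitin ligases of the NEDD4 family. Of 11 such ligases and adaptors, 9 were tested, with medians of 0.08 and 0.14. HECW1 was called higher at 2-fold at 100 nM, as were 1.84% of all genes, on 4, 12 and 16 counts. Its log2 ratio of 1.82 has an interval of 0.31 to 3.98. ITCH, the ligase known to ubiquitinate TXNIP, had 1784, 1854 and 2075 counts and a log2 ratio of 0.16 (0.07 to 0.25) at 100 nM. NEDD4 was at 0.23 (0.05 to 0.41) and NDFIP2, an adaptor, at 0.19 (0.08 to 0.29).

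AMPK, the energy sensor known to phosphorylate TXNIP, showed little difference in its subunit mRNAs. Of 8 genes with LKB1, 6 were tested, with medians of -0.06 and 0.01, and none was called at either limit by the exact binomial test. Of all genes, 4.43% were called higher and 2.51% lower at 1.5-fold and 100 nM. PRKAG1 had 1670, 1843 and 2160 counts and a log2 ratio of 0.31 (0.22 to 0.41) at 100 nM. PRKAB1 was at 0.12 (-0.03 to 0.27) and PRKAA1 at -0.03 (-0.13 to 0.07).

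MLX also belongs to the MAX network, whose factors compete for E-boxes. Of 10 other factors of this network, not all of them partners of MLX, 9 were tested, with medians of -0.07 and 0.00. None was called at 2-fold by the exact binomial test, beside 1.84% higher and 0.512% lower of all genes at 100 nM. MYC had 21175, 28215 and 33596 counts, with log2 ratios of 0.44 and 0.61 (0.58 to 0.63). At 1.5-fold it was called higher at 100 nM, as were 4.43% of all genes. MYCL had 223, 162 and 145 counts and a log2 ratio of -0.68 (-0.99 to -0.37) at 100 nM. At 1.5-fold it was called lower there, as were 2.51% of all genes. MGA had 1669, 1915 and 2202 counts and a log2 ratio of 0.34 (0.25 to 0.43) at 100 nM. Between the doses the log2 ratio of MYC was 0.16 (0.14 to 0.19). That of MYCL was -0.25 (-0.58 to 0.08), an interval that held 0.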

How the data were processed

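Strand-specific mRNA libraries of 3 Molm13 samples, 1 per condition, were aligned to hg19 with Rsubread by the authors, who deposited whole-number counts of reads per Entrez gene with no normalization. Tool versions, the annotation release and the strand setting are not given in the sources used here. The deposited table of the authors' own EBSeq comparisons, with posterior probabilities and fold changes, was not used. The treatment note writes the higher dose without its prefix, and the sample title's 100 nM was used.

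TMM factors came from edgeR 4.0.16 under R 4.3.3. A gene needed 10 or more counts in 1 or more libraries, which 12879 genes met. Their reads were tested pairwise by an exact binomial test, two-sided (scipy 1.17.1), with Benjamini-Hochberg adjustment over all of them, and log2 ratios had 0.5 counts added. Intervals are Clopper-Pearson for ratios and exact Poisson for levels, and both cover counting error only. The floor of 3 counts is 0.125 to 0.132 CPM. The procedure was tested on simulated counts, and the conditions it had to meet covered only counts without replicate variation. That test therefore says nothing on how well the calls hold between conditions. Symbols were matched to 23696 of 25702 identifiers.

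The genes and lists were chosen with earlier results of these data known, from general knowledge. Named are all 8 genes, the other alpha-arrestins, the genes of each list called at 2-fold or with the 3 largest ratios at 100 nM on at least 50 counts, and the 5 genes nearest to TXNIP and to ARRDC4. A gene that this rule names is not reported here. LDHA, HK2, KLF10, SLC2A1, SLC2A3, TXNRD1, the markers and neighbouring genes were named besides. A comparison of the arrestin proteins was planned and not run. Alternative settings used size factors from DESeq2 1.42.0, the plain totals, TMM with mitochondrial genes left out, other count filters, 5 added counts, a 1.5-fold limit, assumed biological variation and a dose trend.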

Additional observations from a re-analysis of the deposited data

How the results depend on the processing

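No paired analysis was possible because each condition has 1 library. Of 217 values of the 7 tested genes recomputed under the alternatives, 211 kept their direction and their side of the limit, and none turned direction. The filters, the 1.5-fold limit and the assumed variation leave the ratios nearly as they were, so their direction could hardly turn. A value not called at first also counts as kept when its adjusted p rises. The scalings by DESeq2 and by total counts, and TMM without mitochondrial genes, shifted ratios by at most 0.0032 on the log2 scale. With the 1.5-fold limit, TXNIP (-0.79) and ARRDC4 (-0.83) at 100 nM and ARRDC4 (-0.90) at 50 nM were called. The number of genes called higher and lower then became 570 and 323 at 100 nM, 231 and 128 at 50 nM, and 109 higher between the doses. With at least 50 counts it was 117 and 29, 33 and 11, and 5 and 9 between the doses, and with no filter it was 24 higher between the doses. Replicate variation was then assumed, as a biological coefficient of variation in the exact test of edgeR. At 0.1, the counts called were 115 and 23 at 100 nM, 20 and 6 at 50 nM, and 1 and 14 between the doses. At 0.2 they were 12 and 0, 0 and 0, and 0 and 4, with 257, 120 and 90 genes past 2-fold at an unadjusted p of 0.05. At 0.4 they were 0 in every comparison, with 46, 18 and 27 genes at the unadjusted p. The dose trend over the 3 libraries, with edgeR's quasi-likelihood test and 1 residual degree of freedom, called 143 higher and 41 lower. TXNIP at 50 nM (-1.01) was called under an assumed variation of 0.1, with an adjusted p of 0.0024 in edgeR's exact test, and was lost at 0.2 and 0.4, where its adjusted p was 1. At 0.1 edgeR's adjusted p was 0.0181 for TXNIP and 0.047 for ARRDC4 at 100 nM, below 0.05 as before. It was 0.102 for ARRDC4 at 50 nM, 0.27 for ARRDC3 at 100 nM and 1 for TXNIP between the doses, all above 0.05. At 0.2 and 0.4 it was 1 for each of these. Over all 10 alternatives the TXNIP value at 50 nM had an adjusted p from 2.06e-74 to 1. In the dose trend, edgeR's adjusted p was 0.00202 for TXNIP and 0.00548 for ARRDC4. That test fits a straight line in dose and takes its variation from departures from such lines, not from replicates. TXNIP was lowest at 50 nM. For ARRDC4 the interval of the log2 ratio between the doses held 0 (0.07, -0.25 to 0.40). The trend values of these genes therefore do not show a steady fall with dose. With 1 library per condition the true variation is unknown, so none of these settings can be preferred from the data. Depth limits MLXIPL and ARRDC5, which were at or under the floor.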
